A study of Mus musculus with 8 samples.

Results

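The data described here are the genotype comparison in mammary tumors that received no irradiation, between miR-21-/- and miR-21+/+ mice. The 4 arrays were chosen by their genotype and treatment labels, out of 8 arrays in all, and every gene on them was used. In the study, tumors arose spontaneously in MMTV-PyMT mice, in which the mouse mammary tumor virus promoter drives the polyomavirus middle T antigen in mammary epithelium, and the aim was to learn what the microRNA contributes to tumor growth and to the response to treatment. All tumors carried the MMTV-PyMT transgene and all mice were female. The mice compared were miR-21-/-;MMTV-PyMT without irradiation (2 arrays) and, as controls, miR-21+/+;MMTV-PyMT without irradiation (2 arrays). The other 4 arrays, 2 of each genotype, came from primary tumors labelled as irradiated with 8 Gy, whereas the study's methods give a different dose for irradiated tumors of this model. The deletion was global, so tumor cells, stroma, vessels and immune cells all lacked miR-21. Mice were followed for up to 18 weeks or to a humane endpoint, and the age and the tumor volume at collection of these 4 tumors were not given in the sources used here. RNA of whole tumor was hybridized, and nothing in the labels says that replicate arrays came from separate mice. The p-values therefore reflect only how far the arrays spread within groups, which may be technical. That spread was pooled over all 8 arrays, so errors and p-values of the untreated comparison also carry the spread of the irradiated arrays.

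MicroRNAs are short RNAs that load into Argonaute proteins and pair, mainly through a seed of bases 2 to 8, with matching sites in messenger RNAs, which are then translated less or degraded. miR-21 is among the microRNAs most often raised in carcinomas, and its established targets include Pdcd4, a translation inhibitor, and Spry1 and Spry2, brakes on receptor tyrosine kinase signaling. The primary transcript overlaps the end of Vmp1, an autophagy gene. The mature strands are shown because their absence defines the miR-21-/- tumors. They are taken from RefSeq (GRCm38.p6), both lie on the minus strand, the 5p arm at chr11:86584120-86584141 and the 3p arm at chr11:86584082-86584103, and capitals mark the seed.

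mmu-miR-21a-5p: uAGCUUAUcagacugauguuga

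mmu-miR-21a-3p: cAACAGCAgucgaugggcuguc

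The arrays do not measure the mature strands. The probe set annotated to both Mir21 and Vmp1 was dim, at the 6.97th percentile of all probe sets, and read 2.02 and 2.0 in miR-21-/- tumors against 2.50 and 2.34 in miR-21+/+ tumors on the log2 scale (difference −0.41). It therefore gives little information on the deletion. Vmp1 itself, from its own probe sets, read 6.34 and 6.34 in miR-21-/- tumors against 7.38 and 7.33 in miR-21+/+ tumors, with no overlap (log2 difference −1.02, SE 0.18; limma, adjusted p = 0.066). Without miR-21+/+ replicate 1 the difference of Vmp1 no longer met the fold change of 2 with unadjusted p under 0.05.

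Values are log2 expression levels, averaged over the probe sets of a gene, for 23152 genes, each measured by 8 probe sets in the median. The array medians lay between 5.08 and 5.16. Across genes, the correlation was 0.987 between the miR-21-/- arrays, 0.982 between the miR-21+/+ arrays and 0.962 to 0.968 between the genotypes. Replicate 1 of the irradiated miR-21-/- tumors stood apart, with correlations of 0.898 to 0.915 with every other array against 0.955 to 0.987 among the remaining pairs, and a mean adipocyte marker level of 10.25 against 4.62 to 5.46 elsewhere. Xist read 10.91 and 11.06 in miR-21-/- tumors against 10.50 and 10.57 in miR-21+/+ tumors, and the Y-linked genes read in the untreated arrays were all between 2.55 and 3.56, as for female tissue.

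By the study's criteria, an unadjusted p under 0.05 together with a change of 2-fold or more, 221 genes were higher (0.955% of those tested) and 500 were lower (2.16%) in miR-21-/- than in miR-21+/+ tumors. In what follows, "rose" and "fell" mean that a gene passed these criteria. An unadjusted p under 0.05 was found for 3053 genes (13.2%), and adjusted p-values among the 721 genes that rose or fell reached 0.374, so most of these calls do not hold after correction. At an adjusted p under 0.05 (limma), 24 genes were higher (0.104%) and 74 were lower (0.320%), and the lowest adjusted p was 0.0171. Both miR-21-/- arrays lay above both miR-21+/+ arrays in 6407 genes (27.7%) and below both in 5659 genes (24.4%). The median log2 difference over all genes was 0.03. The plot of difference against level shows more falls than rises, with Csn2 and B4galnt2 at the extremes. With the brightest probe set of each gene in place of the mean, 523 genes rose and 525 fell. The median log2 difference was 1.36 among the genes that rose and −1.29 among those that fell.

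**Figure D1:**
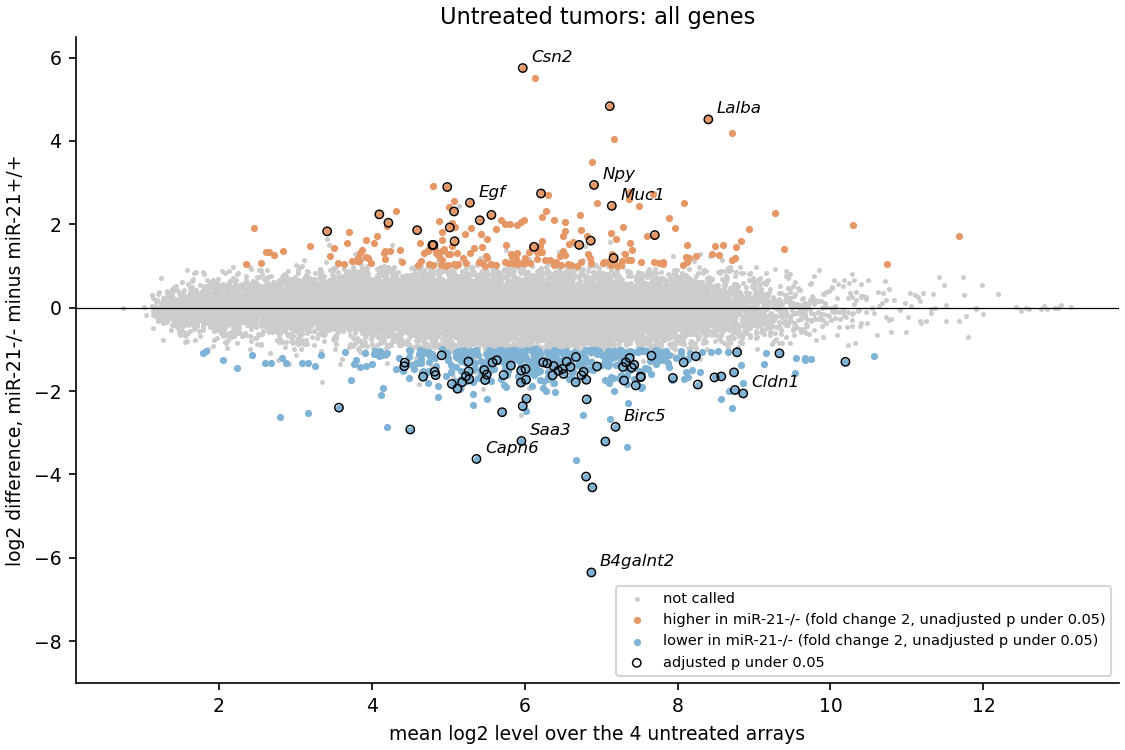
Each point is 1 of 23152 genes, with its mean log2 level over the 4 untreated arrays on the x axis and its log2 difference, miR-21-/- minus miR-21+/+, on the y axis. Orange and blue points passed a fold change of 2 with unadjusted p under 0.05 (221 higher, 500 lower), and ringed points also have an adjusted p under 0.05 (24 higher, 74 lower).

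Milk genes led the rises at an adjusted p under 0.05, of which the 15 largest are given here for named genes with at least 3 probe sets, predicted genes and clones being passed over. Genes were kept where the group with the higher level lay above the median of all genes, so 8 of the 30 genes named here and below have a mean over all 8 arrays at or under that median. *Csn2*, which encodes beta-casein, had log2 levels of 8.93 and 8.77 in miR-21-/- tumors against 2.32 and 3.89 in miR-21+/+ tumors, a difference of 5.75 (SE 0.51; limma, adjusted p = 0.0186) or 53.8-fold. *Lalba*, encoding the lactose synthase subunit alpha-lactalbumin, had 10.68 and 10.64 in miR-21-/- tumors against 6.33 and 5.96 in miR-21+/+ tumors, a difference of 4.52 (SE 0.41; limma, adjusted p = 0.0186) or 22.9-fold. For both genes the miR-21-/- arrays agreed closely and stood far above either miR-21+/+ array. *Npy*, the peptide transmitter neuropeptide Y, read 8.30 and 8.46 in miR-21-/- tumors against 5.47 and 5.40 in miR-21+/+ tumors, a difference of 2.95 (SE 0.24; limma, adjusted p = 0.0171). *Egf*, the ligand epidermal growth factor, read 6.58 and 6.51 in miR-21-/- tumors against 4.01 and 4.04 in miR-21+/+ tumors, a difference of 2.52 (SE 0.20). *Muc1*, a transmembrane mucin of the luminal surface, read 8.40 and 8.32 in miR-21-/- tumors against 5.59 and 6.24 in miR-21+/+ tumors, a difference of 2.44 (SE 0.23). None of these groups overlapped. *Il12a*, the p35 subunit of interleukin 12 and a reported miR-21 target, read 6.81 and 6.54 in miR-21-/- tumors against 4.34 and 4.57 in miR-21+/+ tumors, a difference of 2.23 (SE 0.18; limma, adjusted p = 0.0171). The other genes among these 15 were the potassium channel gene *Kcnma1* (log2 difference 2.90), the auxilin gene *Dnajc6* (2.74), *Bend7* (2.31), the circadian factor *Arntl2* (2.10), the teneurin *Odz3* (2.04), *H60b*, a ligand of the NKG2D receptor of natural killer cells (1.92), *Cecr2*, a chromatin remodeling gene (1.86), *Zfp503* (1.74) and the transcription factor *Sox14* (1.61).

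The largest fall, among 15 chosen in the same way, was in a glycosyltransferase. *B4galnt2*, which adds the terminal sugar of the Sda antigen, read 4.06 and 3.33 in miR-21-/- tumors against 10.41 and 9.69 in miR-21+/+ tumors, a difference of −6.35 (SE 0.63; limma, adjusted p = 0.0188), an 81.7-fold lower level. *Capn6*, a calpain family member, read 3.64 and 3.47 in miR-21-/- tumors against 7.15 and 7.22 in miR-21+/+ tumors (difference −3.63, SE 0.41). *Saa3*, an acute phase protein, read 4.53 and 4.19 in miR-21-/- tumors against 8.26 and 6.85 in miR-21+/+ tumors (difference −3.20, SE 0.44), so that the miR-21+/+ arrays differed among themselves but neither reached the miR-21-/- values. *Birc5*, encoding survivin of the chromosomal passenger complex, read 5.55 and 5.97 in miR-21-/- tumors against 8.93 and 8.31 in miR-21+/+ tumors (difference −2.86, SE 0.30; limma, adjusted p = 0.0219). *Cldn1*, a tight junction claudin, read 7.81 and 7.85 in miR-21-/- tumors against 9.64 and 10.14 in miR-21+/+ tumors (difference −2.06, SE 0.24). *Slc2a1*, the glucose transporter GLUT1, read 7.35 and 7.34 in miR-21-/- tumors against 9.01 and 9.37 in miR-21+/+ tumors (difference −1.84, SE 0.24). In each of these genes the groups were fully apart. The remaining genes of the 15 were *Apobec2* (log2 difference −3.21), *Tril*, a Toll-like receptor accessory gene (−2.51), *Hhipl2* (−2.36), the G protein subunit gene *Gng11* (−2.20), *Ero1l*, an oxidase of the endoplasmic reticulum (−1.97), the imprinted antisense RNA *Nespas* (−1.94), thymidine kinase *Tk1* (−1.87), *Mybl1*, a MYB family factor (−1.83), and *Slc16a3*, the lactate exporter MCT4 (−1.80). All 30 genes were selected to be apart between the genotypes. Their 339 probe sets, whose means chose the genes, lay in the direction of their gene in 335 cases, and 26 of the 30 genes had every probe set in 1 direction. The adjusted calls moved with single arrays in both directions. Without any single untreated array, at most 2 genes in the whole table were higher and at most 4 lower at an adjusted p under 0.05, and without either irradiated miR-21+/+ array there were 0. Without either irradiated miR-21-/- array, 439 were higher and 747 lower.

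**Figure D2:**
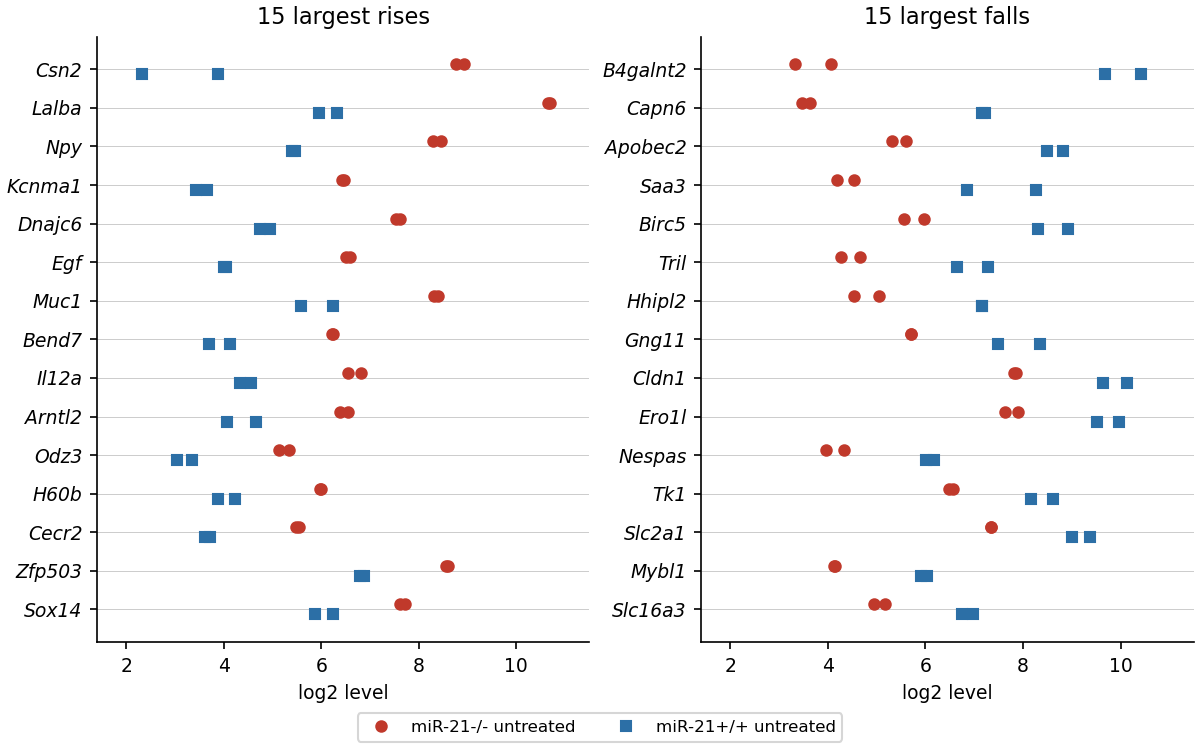
Log2 levels of the 30 named genes, 15 with the largest rises and 15 with the largest falls at an adjusted p under 0.05, with 1 point for each miR-21-/- and each miR-21+/+ untreated array. In every gene both miR-21-/- points lie on 1 side of both miR-21+/+ points, and Csn2 and B4galnt2 have the widest gaps.

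Genes were then read in 28 functional lists and 14 lists of cell type markers. Each is described by how many measured members rose or fell and by the median log2 difference of all its measured members, to be set beside the 0.955% that rose, the 2.16% that fell and the median of 0.03 over all genes. Of the 129 genes named in the text that rose or fell, 88 still met the criteria without any single array, and for the other 41 the arrays whose removal ended the call are given beside them. The 88 include the 30 genes chosen above as large differences without overlap. List members were named for a small p or for passing the criteria, so the 88 are not a measure of stability. The plot of list medians places mitosis, replication and hypoxia genes lowest and milk genes highest.

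**Figure D3:**
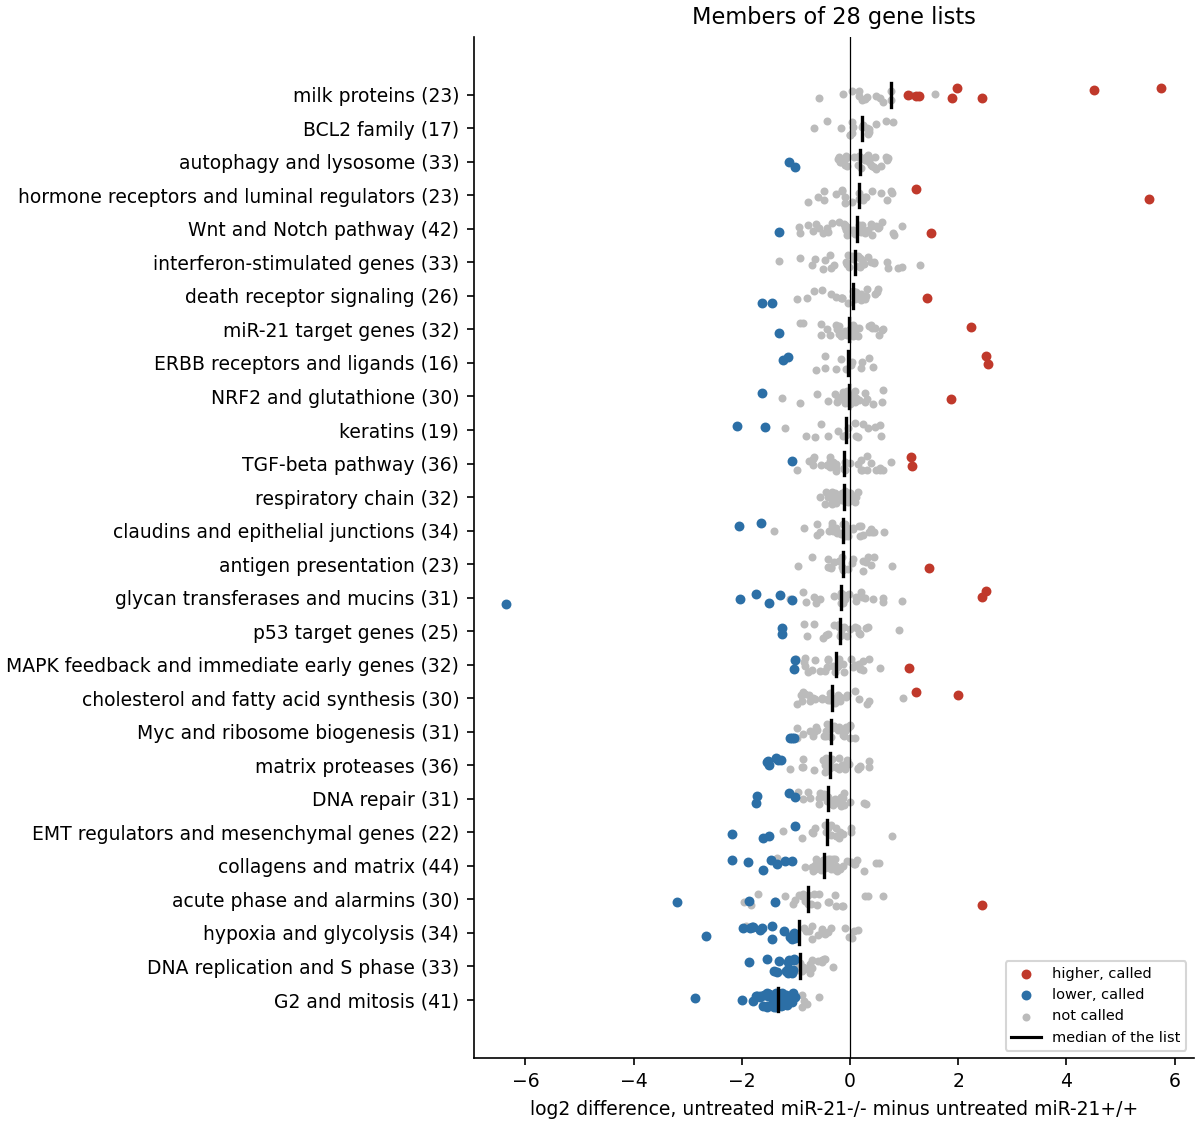
Log2 differences, miR-21-/- minus miR-21+/+ in untreated tumors, of the measured members of each functional list, with 1 point per gene, colored where the gene rose (red) or fell (blue), the number of members in parentheses and the list median as a bar. G2 and mitosis genes lie wholly below 0 (median −1.33), and milk genes mostly above it (median 0.75).

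Cell division genes were lower throughout in miR-21-/- tumors. Of 41 measured genes of G2 and mitosis, 36 fell, 0 rose and 8 had an adjusted p under 0.05, with a median difference of −1.33. All 41 had both miR-21-/- arrays below both miR-21+/+ arrays, against 24.4% of all genes, and 670 of their 710 probe sets were lower. The mean level of the list was 6.17 and 6.24 in miR-21-/- tumors against 7.79 and 7.34 in miR-21+/+ tumors, so replicate 1 of the miR-21+/+ tumors was the highest. Without that array 28 members fell. *Mki67*, the proliferation marker Ki-67, read 8.06 and 8.25 in miR-21-/- tumors against 9.77 and 9.27 in miR-21+/+ tumors (log2 difference −1.36, SE 0.25; limma, adjusted p = 0.0718). *Kif23*, a kinesin of the central spindle, read 5.70 and 5.84 in miR-21-/- tumors against 7.73 and 7.40 in miR-21+/+ tumors (difference −1.79, SE 0.24; limma, adjusted p = 0.0375). *Bub1*, a spindle checkpoint kinase, read 4.86 and 4.98 in miR-21-/- tumors against 6.83 and 6.24 in miR-21+/+ tumors (difference −1.61, SE 0.22). Other mitotic genes fell by similar amounts, among them *Prc1*, the cross-linker of the central spindle (−1.67), *Kif20a* (−1.41), the kinases *Aurkb* (−1.42), *Aurka* (−1.29) and *Plk1* (−1.15), the phosphatase *Cdc25c* (−1.99), the cyclin *Ccnb2* (−1.54), topoisomerase *Top2a* (−1.54) and *Foxm1*, the transcription factor of mitotic genes (−1.26). In whole tumor, fewer cells of a kind and less RNA per cell cannot be told apart, for these genes and for every list that follows.

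Of 33 genes of DNA replication and S phase, 14 fell and 0 rose, with a median of −0.93 and all 33 apart in the lower direction. *Mcm3*, a subunit of the replicative helicase, read 5.98 and 6.02 in miR-21-/- tumors against 7.77 and 7.31 in miR-21+/+ tumors (log2 difference −1.54, SE 0.22; limma, adjusted p = 0.0413). *Pole*, the catalytic subunit of the leading strand polymerase, read 5.62 and 5.55 in miR-21-/- tumors against 7.08 and 6.72 in miR-21+/+ tumors (difference −1.31, SE 0.18). Both genes were fully apart. *Mcm5* (−1.41), the chromatin assembly gene *Chaf1b* (−1.35), the licensing factors *Cdt1* (−1.14) and *Cdc6* (−1.14) and the ribonucleotide reductase subunit *Rrm2* (−1.18) also fell. The count depended on the miR-21+/+ arrays, with 6 members falling without replicate 1 and 21 without replicate 2. Of 31 DNA repair genes 4 fell, namely *Brca1* (−1.74, SE 0.20; limma, adjusted p = 0.028) and *Rad54l* (−1.71), both of homologous recombination, the helicase *Blm* (−1.12) and the nuclease *Exo1* (−1.01), with a list median of −0.40. Without miR-21+/+ replicate 1, 2 repair genes fell. That array ended the calls of *Cdc6*, *Rrm2*, *Blm* and *Exo1*, and miR-21-/- replicate 2 those of *Cdc6* and *Exo1*.

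The promoters of mitotic genes are shown because members of this list moved together. Motif shares here and below cover every list member with a listed promoter, whether or not it changed. They therefore describe the lists and say nothing about why genes rose or fell. Genes expressed in G2 and mitosis commonly carry CCAAT boxes, bound by the factor NF-Y, and a cell cycle genes homology region with the letters TTTGAA, bound by the DREAM and MYB-MuvB complexes. In windows from 250 bases before to 50 bases after the start site (RefSeq, GRCm38.p6), searched on both strands, TTTGAA was present in 23 of 33 mitotic genes with a listed promoter (69.7%), against 20.2% of 27025 genes. CCAAT was present in 24 of the 33 (72.7%) against 41.1% of all genes, and both motifs in 20 (60.6%) against 7.97%. For the replication genes, TTTGAA was found in 3 of 28 (10.7%) and CCAAT in 16. A match is a description of the letters and not of binding. The 130 bases before the start sites of *Prc1* (chr7:80294346-80294475, plus strand, the second of 2 listed start sites) and *Top2a* (chr11:99024190-99024319, minus strand) follow, with CCAAT and TTTGAA in capitals, where ATTGG and TTCAAA are the same motifs read on the opposite strand.

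Prc1: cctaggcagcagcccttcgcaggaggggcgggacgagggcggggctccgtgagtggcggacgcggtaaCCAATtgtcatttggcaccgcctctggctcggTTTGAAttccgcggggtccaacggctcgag

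Top2a: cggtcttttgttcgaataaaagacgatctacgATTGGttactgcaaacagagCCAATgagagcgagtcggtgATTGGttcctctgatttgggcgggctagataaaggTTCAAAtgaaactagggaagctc

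Hypoxia and glycolysis genes formed the next lower group. Many of them are targets of the hypoxia-inducible factors, which accumulate when oxygen is short and raise glucose uptake, glycolysis and vessel growth. Of 34 measured members 14 fell, 0 rose and 4 had an adjusted p under 0.05, and the median was −0.93. The list mean was 7.04 and 7.10 in miR-21-/- tumors against 8.00 and 8.07 in miR-21+/+ tumors, and 29 of the 34 genes were apart in the lower direction. *Ndrg1*, a hypoxia-induced growth regulator, read 7.61 and 7.69 in miR-21-/- tumors against 9.22 and 9.42 in miR-21+/+ tumors (log2 difference −1.67, SE 0.17; limma, adjusted p = 0.0219). *Vegfa*, the principal growth factor of blood vessels, read 7.83 and 8.07 in miR-21-/- tumors against 9.72 and 9.81 in miR-21+/+ tumors (difference −1.81, SE 0.54; limma, adjusted p = 0.21). *Adm*, encoding the vasodilator adrenomedullin, read 6.13 and 5.44 in miR-21-/- tumors against 8.32 and 8.57 in miR-21+/+ tumors (difference −2.66, SE 0.48). The untreated groups were apart in all 3 genes, while the error of Vegfa was the widest relative to its difference. That error was pooled over all 8 arrays, and the irradiated miR-21-/- arrays read 9.26 and 7.25 for Vegfa. Glycolytic and pH genes fell as well, including *Pgk1*, phosphoglycerate kinase (−1.22), *Pfkp*, phosphofructokinase (−1.04), *Eno2*, an enolase (−1.02), *Car9*, carbonic anhydrase 9 (−1.44), and with them *Ak4* (−1.45), *P4ha1*, a collagen prolyl hydroxylase (−1.63), *Ankrd37* (−1.10) and *Egln1*, an oxygen sensor that marks HIF for destruction (−1.08). Without miR-21-/- replicate 1, 8 members fell, and *Vegfa*, *Egln1*, *Pfkp*, *Eno2*, *P4ha1* and *Ankrd37* were those lost. *Pfkp* and *P4ha1* were also lost without miR-21+/+ replicate 2, and *Eno2* and *Ankrd37* without replicate 1. Of 12 endothelial markers 0 rose or fell (limma; 0 also had an unadjusted p under 0.05, and 3 fell without either irradiated miR-21-/- array) and 11 were negative, with a median of −0.66 and a mean of 5.10 and 5.10 in miR-21-/- tumors against 5.47 and 5.91 in miR-21+/+ tumors. The part of vessel content in the hypoxia values was not tested.

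The letters ACGTG, the core of the hypoxia response element, were present in the 300-base windows of 23 of 33 hypoxia and glycolysis genes (69.7%), against 21.8% of all genes. They were also present in 12 of 28 replication genes (42.9%) and 10 of 33 mitotic genes (30.3%), but in 2 of 31 collagens and matrix genes (6.45%). The 130 bases before the start site of *Slc2a1* (chr4:119108615-119108744, plus strand) and of *Car9* (chr4:43506896-43507025, plus strand; GRCm38.p6) are shown as examples among the genes that fell, with the motif in capitals and CACGT as its opposite strand.

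Slc2a1: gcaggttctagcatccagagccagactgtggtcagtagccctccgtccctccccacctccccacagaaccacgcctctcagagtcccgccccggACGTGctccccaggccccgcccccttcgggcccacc

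Car9: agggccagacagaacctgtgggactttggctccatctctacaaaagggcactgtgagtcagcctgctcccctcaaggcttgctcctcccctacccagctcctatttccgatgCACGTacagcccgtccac

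Milk protein and secretory genes moved the other way. These genes are switched on in the luminal epithelium of pregnancy by prolactin acting through STAT5, together with the factor ELF5. Of 23 measured members 8 rose and 0 fell, 3 of them at an adjusted p under 0.05, and the median was 0.75. Both miR-21-/- arrays were above both miR-21+/+ arrays in 18 of the 23 genes, against 27.7% of all genes, and the list mean was 8.04 and 8.04 in miR-21-/- tumors against 6.94 and 6.84 in miR-21+/+ tumors. Besides *Csn2*, *Lalba* and *Muc1*, the members that rose were the casein *Csn1s2a* (log2 difference 1.97, SE 0.62), the immunoglobulin transporter *Pigr* (1.88, SE 0.40), whey acidic protein *Wap* (1.27, SE 0.42), *Elf5* (1.23, SE 0.44) and the folate receptor *Folr1* (1.08, SE 0.24), none of which passed the adjusted threshold. *Wap* read 7.10 and 7.21 in miR-21-/- tumors against 6.28 and 5.51 in miR-21+/+ tumors, and *Elf5* read 8.67 and 9.04 in miR-21-/- tumors against 7.79 and 7.46 in miR-21+/+ tumors, so both were apart. Without miR-21-/- replicate 2, 5 members rose, and without miR-21+/+ replicate 2, 4 did. The call of *Csn1s2a* was lost without any of the 4 arrays, that of *Wap* without any but miR-21+/+ replicate 1, that of *Elf5* without any but miR-21-/- replicate 1, and that of *Folr1* without miR-21+/+ replicate 2. *Csn2*, *Lalba*, *Muc1* and *Pigr* kept theirs throughout. Of 14 luminal epithelial markers 2 rose and 2 fell, with list means of 8.27 and 8.34 in miR-21-/- tumors against 8.24 and 8.50 in miR-21+/+ tumors. The rises were *Muc1* and *Elf5*, and the falls were keratin 19 (*Krt19*, −1.57) and *Prom1* (−1.31).

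The STAT site TTCNNNGAA was present in the 300-base windows of 5 of 18 milk genes with a listed promoter (27.8%), against 9.55% of all genes. *Csn2*, with the largest rise, has it before its start site, as TTCTTGGAA, within the 130 bases at chr5:87699426-87699555 (minus strand, GRCm38.p6), shown with the site in capitals.

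Csn2: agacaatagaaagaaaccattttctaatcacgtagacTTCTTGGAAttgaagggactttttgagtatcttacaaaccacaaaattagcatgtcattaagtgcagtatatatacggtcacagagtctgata

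Among hormone receptors and luminal regulators, 2 of 23 rose and 0 fell (median 0.16). *Tfap2b*, an AP-2 transcription factor, read 8.81 and 8.97 in miR-21-/- tumors against 4.02 and 2.73 in miR-21+/+ tumors. The log2 difference was 5.52 with a wide error (SE 0.95; limma, adjusted p = 0.066). That error was pooled over all 8 arrays, and the irradiated miR-21+/+ arrays read 7.31 and 4.26 for *Tfap2b*. The other rise was *Elf5*, lost without either miR-21+/+ array or miR-21-/- replicate 2, and *Foxa1*, a partner of the estrogen receptor, did not pass (−0.78, SE 0.20). Keratins (19 measured, 2 fell, median −0.07) included *Krt17*, a basal and stress keratin, at 4.56 and 3.99 in miR-21-/- tumors against 5.91 and 6.81 in miR-21+/+ tumors (difference −2.08, SE 0.48). Of 10 basal or myoepithelial markers, the oxytocin receptor *Oxtr* rose (1.31) and *Krt17* fell (list median −0.19), with 2 falling without miR-21+/+ replicate 1 or without either irradiated miR-21-/- array. Of 34 claudins and junction genes, *Cldn1* and the connexin *Gja1* fell, both at an adjusted p under 0.05 (limma), and the list median was −0.12. *Gja1* read 7.67 and 7.82 in miR-21-/- tumors against 9.19 and 9.60 in miR-21+/+ tumors (difference −1.65, SE 0.24).

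Extracellular matrix genes were moderately lower. Of 44 collagens and matrix genes 7 fell and 0 rose, with a median of −0.48 and a mean of 6.53 and 6.58 in miR-21-/- tumors against 6.97 and 7.20 in miR-21+/+ tumors. *Fn1*, fibronectin, read 7.41 and 7.54 in miR-21-/- tumors against 9.43 and 9.88 in miR-21+/+ tumors (log2 difference −2.18, SE 0.48; limma, adjusted p = 0.116). The proteoglycan *Vcan* (−1.88), the basement membrane genes *Lama5* (−1.46), *Col4a1* (−1.34) and *Col4a2* (−1.08) and the glycoprotein genes *Tnc* (−1.61) and *Thbs1* (−1.21) were the other 6. None had an adjusted p under 0.05. The count was unstable to single arrays, with 3 and 4 members falling without miR-21-/- replicates 1 and 2, 4 and 2 without miR-21+/+ replicates 1 and 2, and 4 without either irradiated miR-21+/+ array. *Fn1* and *Vcan* fell in each of these, whereas *Tnc*, *Col4a1* and *Col4a2* were lost in all of them, *Lama5* without miR-21-/- replicate 1 or miR-21+/+ replicate 2 and *Thbs1* without miR-21+/+ replicate 2. Of 36 matrix proteases and their inhibitors 6 fell and 0 rose (median −0.36), led by *Plaur*, the urokinase receptor, at 5.28 and 5.12 in miR-21-/- tumors against 6.65 and 6.77 in miR-21+/+ tumors (difference −1.51, SE 0.19; limma, adjusted p = 0.0372). The others were the inhibitor *Timp1* (−1.54) and the proteases *Mmp14* (−1.5), *Adamts4* (−1.37), *Mmp8* (−1.33) and *Adam8* (−1.28), of which *Mmp8* was lost without miR-21+/+ replicate 1 or either miR-21-/- array. Of 22 EMT regulators and mesenchymal genes 4 fell, namely *Fn1*, *Mmp14*, *Tnc* and the fibronectin receptor subunit *Itga5* (−1.01), and the median was −0.43, with 2 falling without miR-21-/- replicate 1. *Itga5* was lost without that array or miR-21+/+ replicate 1. *Fn1* and *Tnc* belong to the matrix list as well, and *Mmp14* to the protease list. Of 12 fibroblast markers 0 rose or fell (limma; 1 had an unadjusted p under 0.05; median −0.40), with means of 6.39 and 6.43 in miR-21-/- tumors against 6.31 and 7.04 in miR-21+/+ tumors, the higher miR-21+/+ value being replicate 2. The part of stromal content in these falls was not tested.

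In the inflammatory lists the miR-21+/+ arrays differed from each other. Of 33 interferon-stimulated genes 0 rose or fell (limma; 1 had an unadjusted p under 0.05), with a median of 0.10. Their mean was 7.36 and 7.34 in miR-21-/- tumors against 6.40 and 8.18 in miR-21+/+ tumors. In all 33 genes miR-21+/+ replicate 2 was above replicate 1, against 49.2% of all genes, by a median of 1.81 on the log2 scale, while the miR-21-/- replicates differed by a median of −0.03. *Oas2*, a sensor of double-stranded RNA, read 8.99 and 8.88 in miR-21-/- tumors against 6.21 and 9.07 in miR-21+/+ tumors, and *Ifit1*, an RNA-binding effector, read 8.94 and 8.91 in miR-21-/- tumors against 7.04 and 9.44 in miR-21+/+ tumors, both named after their values were seen. The genotypes overlap in both genes. Leaving out 1 miR-21+/+ array decides the direction of the list: without replicate 1, 8 members fell and the median was −0.71, and without replicate 2, 13 rose and the median was 0.92.

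Of 30 acute phase and alarmin genes 3 fell and 1 rose (median −0.77). Their mean was 5.55 and 5.53 in miR-21-/- tumors against 6.78 and 5.78 in miR-21+/+ tumors, and 24 of the 30 were higher in miR-21+/+ replicate 1 than in replicate 2. The falls were *Saa3*, complement factor B (*Cfb*, −1.38) and the neutrophil chemokine *Cxcl5* (−1.87), which read 4.18 and 4.12 in miR-21-/- tumors against 7.33 and 4.70 in miR-21+/+ tumors. *Saa2*, of the same family as *Saa3*, rose, with 8.65 and 8.79 in miR-21-/- tumors against 6.77 and 5.78 in miR-21+/+ tumors (log2 difference 2.44, SE 0.39; limma, adjusted p = 0.0546). Without miR-21+/+ replicate 2, 15 members fell, and without either irradiated miR-21-/- array 6 did. Neutrophil markers had means of 4.22 and 4.30 in miR-21-/- tumors against 5.95 and 4.44 in miR-21+/+ tumors, with 11 of 12 higher in miR-21+/+ replicate 1 than in replicate 2. *Mmp8*, *Retnlg* (−2.34) and *Csf3r* (−1.08) fell, 0 markers fell without miR-21+/+ replicate 1 and 8 fell without replicate 2. All 3 calls were also lost without either miR-21-/- array, although 1 other marker fell without miR-21-/- replicate 2, and *Csf3r* was lost without either irradiated miR-21+/+ array as well. The call of *Cxcl5* was lost without miR-21+/+ replicate 1 or either miR-21-/- array. Of 23 antigen presentation genes only the MHC class II invariant chain *Cd74* rose, at 9.03 and 9.41 in miR-21-/- tumors against 7.16 and 8.33 in miR-21+/+ tumors (difference 1.47, SE 0.44; list median −0.13), a call lost without miR-21+/+ replicate 1 or miR-21-/- replicate 2. The plot of list means shows the split of the miR-21+/+ arrays in the interferon, acute phase and neutrophil lists beside the tighter mitosis and hypoxia lists.

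**Figure D4:**
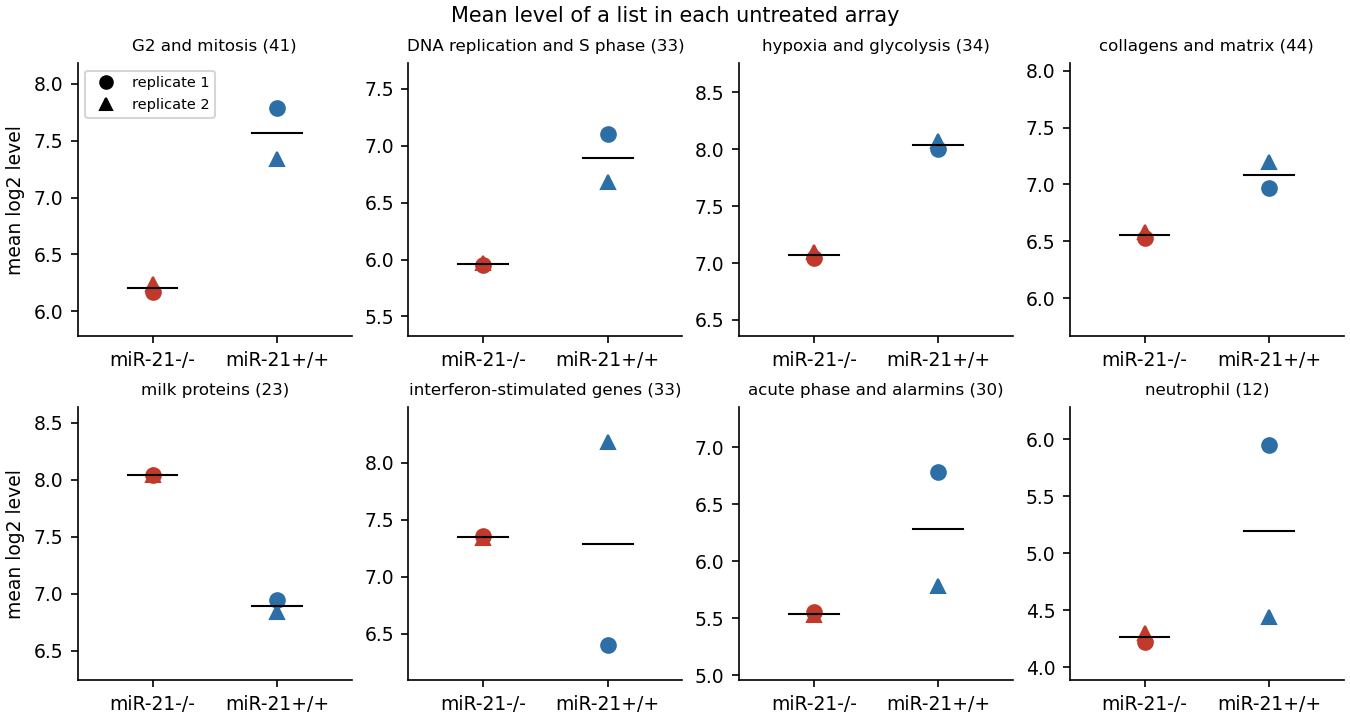
Mean log2 level of the measured members of selected lists in each untreated array, with miR-21-/- arrays to the left of miR-21+/+ arrays. The interferon-stimulated genes put the miR-21-/- arrays (7.36 and 7.34) between the miR-21+/+ arrays (6.40 and 8.18), whereas the mitosis genes put both miR-21-/- arrays (6.17 and 6.24) below both miR-21+/+ arrays (7.79 and 7.34).

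Glycan transferases and mucins included the largest fall among the named genes and moved both ways. Of 31 measured members 2 rose and 6 fell (median −0.16). With *Muc1*, the mucin *Muc15* rose, at 9.21 and 9.48 in miR-21-/- tumors against 6.27 and 7.40 in miR-21+/+ tumors (log2 difference 2.51, SE 0.45; limma, adjusted p = 0.0698). The mucin *Muc4*, a partner of ERBB2, fell, at 5.42 and 5.34 in miR-21-/- tumors against 7.45 and 7.38 in miR-21+/+ tumors (difference −2.03, SE 0.32). Sialyltransferases fell in *St6gal1* (−1.29, SE 0.18; limma, adjusted p = 0.0375) and *St8sia6* (−1.49), and so did the transferases *Galnt12* (−1.73) and *B3galt5* (−1.07), next to *B4galnt2*. The call of *B3galt5* was lost without any of 5 arrays, namely either miR-21-/- array, miR-21+/+ replicate 1 and either irradiated miR-21+/+ array.

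Growth factor pathways showed single members rather than whole lists. Of 16 ERBB receptors and ligands 2 rose and 2 fell (median −0.03). With *Egf*, the receptor *Erbb4* rose, at 6.46 and 6.24 in miR-21-/- tumors against 3.96 and 3.63 in miR-21+/+ tumors (log2 difference 2.56, SE 0.53; limma, adjusted p = 0.102). The ligands that fell were epigen, *Epgn*, at 4.24 and 4.44 in miR-21-/- tumors against 5.45 and 5.52 in miR-21+/+ tumors (difference −1.14, SE 0.17; limma, adjusted p = 0.0465), and *Hbegf* (−1.24). Of 32 MAPK feedback and immediate early genes the ETS factor *Etv1* rose (1.10), and *Klf6* (−1.03) and the ETS factor *Etv4* (−1.02) fell (median −0.26). Of 42 Wnt and Notch genes *Lgr5*, a Wnt target and stem cell receptor, rose (1.5, SE 0.17; limma, adjusted p = 0.0282) and the Notch ligand *Jag1* fell (−1.32), with a median of 0.12. Of 36 TGF-beta pathway genes the ligands *Tgfb2* (1.13) and *Tgfb3* (1.15) rose and the target *Ctgf* fell (−1.07), with a median of −0.11. Several of these calls were lost without a single array, those of *Hbegf* and *Klf6* without miR-21+/+ replicate 2, that of *Etv1* without miR-21+/+ replicate 2 or miR-21-/- replicate 2, and that of *Etv4* without any untreated array but miR-21+/+ replicate 2. In the TGF-beta list *Tgfb2* was lost without miR-21-/- replicate 2, *Ctgf* without miR-21+/+ replicate 2 or miR-21-/- replicate 1, and *Tgfb3* without any array but miR-21+/+ replicate 2 or either irradiated miR-21-/- array. Of the Wnt and Notch genes, 3 rose and 2 fell without miR-21+/+ replicate 2.

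Targets of miR-21 did not stand apart as a list. Of 32 measured genes named as targets in earlier work, 1 rose (*Il12a*), 1 fell (*Jag1*) and the signs were even, 16 positive and 16 negative, with a median of −0.02. Without replicate 2 of either genotype 2 fell. *Pdcd4* read 9.18 and 9.65 in miR-21-/- tumors against 8.59 and 9.04 in miR-21+/+ tumors, a difference of 0.60 (SE 0.27; limma, adjusted p = 0.415), with both miR-21-/- arrays above both miR-21+/+ arrays. Death receptor genes also moved singly, with 1 of 26 rising and 2 falling (median 0.06). *Fas*, the receptor that starts the extrinsic pathway of apoptosis, read 5.97 and 6.14 in miR-21-/- tumors against 4.42 and 4.83 in miR-21+/+ tumors (difference 1.43, SE 0.22; limma, adjusted p = 0.0522). Its ligand *Fasl* read 4.27 and 4.01 in miR-21-/- tumors against 3.69 and 3.66 in miR-21+/+ tumors (difference 0.47, SE 0.18) and did not pass. *Mlkl*, the effector of necroptosis, fell, at 6.51 and 6.85 in miR-21-/- tumors against 7.96 and 8.28 in miR-21+/+ tumors (difference −1.44, SE 0.20; limma, adjusted p = 0.0375), as did the TNF receptor *Tnfrsf1b* (−1.62). The initiator caspase *Casp8* was just short of the fold change (−0.98, SE 0.22). Of 17 BCL2 family genes 0 rose or fell (limma; 2 had an unadjusted p under 0.05; median 0.23), where *Bcl2* differed by 0.67 (SE 0.21). Of 25 p53 target genes *Gtse1* (−1.25), which also serves in mitosis, and the kinase *Plk2* (−1.25) fell, with a median of −0.18, the call of *Plk2* being lost without miR-21+/+ replicate 2 or miR-21-/- replicate 1. The calls of *Il12a*, *Jag1*, *Fas*, *Mlkl*, *Tnfrsf1b* and *Gtse1* held without any single array. Over all alternative fits, however, the smallest differences were 0.39 for *Il12a*, −0.86 for *Jag1* and 0.52 for *Fas*. They were −0.46 for *Tnfrsf1b* and −0.65 for *Gtse1*, and all 5 of these miss the fold change of 2. With the brightest probe set of each gene, 0 death receptor genes rose. *Mlkl* met the criteria in all 19 fits.

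Metabolic and growth lists held few genes that rose or fell. In 32 respiratory chain genes 0 rose or fell (limma; 0 also had an unadjusted p under 0.05), and the differences ran between −0.55 and 0.14 (median −0.11). Of 30 genes of cholesterol and fatty acid synthesis 2 rose and 0 fell, 23 were negative and the median was −0.33. The rises were the desaturase *Scd1*, at 11.24 and 11.33 in miR-21-/- tumors against 8.85 and 9.74 in miR-21+/+ tumors (log2 difference 1.99, SE 0.47), and the lipogenic regulator *Thrsp* (1.23), and without miR-21+/+ replicate 2 another 2 members fell. Among 30 NRF2 and glutathione genes the glutathione transferase *Gsta4* rose (1.87) and heme oxygenase *Hmox1* fell (−1.63), with a median of −0.03, and 2 fell without replicate 2 of either genotype or without either irradiated miR-21-/- array. Of 31 Myc and ribosome biogenesis genes 3 fell, 28 were negative and 24 had both miR-21-/- arrays below both miR-21+/+ arrays (median −0.35). The falls were *Mybbp1a* (−1.07, SE 0.16; limma, adjusted p = 0.0498), ornithine decarboxylase *Odc1* (−1.04) and *Utp20* (−1.10). Without miR-21+/+ replicate 1, 1 member fell, and without replicate 2, 5 did. *Odc1* was lost without replicate 1 and *Utp20* without that array or miR-21-/- replicate 1. Of 33 autophagy and lysosome genes the lysosomal glucosidase *Gaa* (−1.13) and galactosidase *Gla* (−1.01) fell, while the list median was 0.19. *Gaa* was lost without miR-21-/- replicate 1, and *Gla* without replicate 2 of either genotype.

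Markers of other cells gave few genes that rose or fell, although several lists leaned to 1 side. Adipocyte markers had means of 4.67 and 4.75 in miR-21-/- tumors against 4.66 and 4.93 in miR-21+/+ tumors, and 0 of 16 rose or fell (limma; 0 also had an unadjusted p under 0.05, and 2 fell without either irradiated miR-21-/- array). Of 15 macrophage markers *Itgam* (−1.22) and *Cd14* (−1.04) fell, with means of 6.13 and 6.16 in miR-21-/- tumors against 6.43 and 6.60 in miR-21+/+ tumors. *Itgam* was lost without miR-21+/+ replicate 1, and *Cd14* without that array or either miR-21-/- array. Of 16 T and NK cell markers 0 rose or fell (limma; 2 had an unadjusted p under 0.05) and 13 were positive (median 0.14), with means of 4.29 and 4.24 in miR-21-/- tumors against 4.07 and 4.08 in miR-21+/+ tumors. In the B and plasma cell, mast cell, skeletal muscle, skin keratinocyte and erythrocyte lists 0 genes rose or fell, with 0 to 2 per list at an unadjusted p under 0.05 (limma). Of 12 skeletal muscle markers 10 were negative and 8 apart in the lower direction (median −0.36), and both erythrocyte markers were apart in the lower direction (median −0.68). The luminal epithelial means of 8.24 to 8.50 show that epithelial markers were present in all 4 tumors.

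Falls were frequent in 1 stretch of chromosome 11. Of 205 genes of its distal end, from *Cpsf4l* to *B3gntl1* in the RefSeq order, 44 fell and 0 rose, 158 were negative and the median was −0.48. Over all genes 2.16% fell, 0.955% rose and the median was 0.03. No rule for the ends of this segment is given here and no other region was counted, so the spread of falls over the genome was not tested. *Birc5*, *Tk1*, *Slc16a3* and *Gaa* lie there. Mir21 lies on the same chromosome. Without these genes 221 rose and 456 fell in the rest of the table, and the mitosis list still had 35 falls and the hypoxia list 13. The cause of this cluster was not tested.

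The irradiated tumors gave a second comparison of the genotypes that shares no array with the first. There, 307 genes were higher (1.33%) and 609 lower (2.63%) in miR-21-/- tumors by the same criteria. Of the 500 genes that fell in untreated tumors, 397 (79.4%) were also lower in irradiated miR-21-/- tumors, against 50.4% of all genes. Of these 500, 166 (33.2%) fell there too and 9 rose, with a median of −0.68 against −1.29 in untreated tumors. Of the 221 that rose, 129 (58.4%) were also higher there, against 49.6% of all genes. Of these 221, 24 (10.9%) rose there and 24 fell, with a median of 0.17 against 1.36 in untreated tumors. In all, 526 of 721 genes (73%) kept their sign, against 57.6% of all genes, and this share was 78.7% without irradiated miR-21-/- replicate 1 and 62.1% without replicate 2. Mitosis genes were as low in irradiated tumors (median −1.31, 33 of 41 falling), and so were hypoxia genes (median −0.92, 17 of 34 falling). *Birc5* (−2.38), *Cldn1* (−2.67), *Hhipl2* (−2.81) and *Slc2a1* (−1.96) fell in irradiated tumors as well. Replication genes had a median of −0.54, and the matrix (0.24), protease (0.21), EMT (0.49) and milk (−0.30) lists had medians of the opposite sign to those of untreated tumors. The called genes did not all follow these medians. Of 23 milk genes 4 rose and 2 fell there, and of 44 matrix genes 2 rose and 4 fell. The milk list mean was 7.74 and 9.11 in irradiated miR-21-/- against 8.29 and 8.31 in irradiated miR-21+/+ tumors. The first of the irradiated miR-21-/- arrays, which had high adipocyte, fibroblast (8.64) and endothelial (6.76) means, enters those values, and its part in them was not tested.

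The difference between the genotype effects was tested as an interaction. At an adjusted p under 0.05 (limma) 1 gene differed (0.00432%), and 1858 did at an unadjusted p under 0.05. That gene was *Npy*, which in irradiated tumors read 5.79 and 6.36 in miR-21-/- against 8.10 and 7.70 in miR-21+/+, a log2 difference of −1.82 where untreated tumors had 2.95. The difference of these differences was −4.77 (SE 0.34; limma, adjusted p = 0.0257). *Lalba* also turned sign (−1.14 in irradiated tumors, interaction −5.66, SE 0.57, adjusted p = 0.0548, limma). So did *Muc1* (−0.79, interaction −3.24, SE 0.33, adjusted p = 0.0548, limma). Neither interaction passed the adjusted threshold. By the study's criteria *Lalba* fell in irradiated miR-21-/- tumors (unadjusted p = 0.0239 and adjusted p = 0.282, limma). The same holds for *Npy* there (unadjusted p = 8.58e-05 and adjusted p = 0.033, limma). *B4galnt2* also turned sign, at 4.0 and 6.11 in irradiated miR-21-/- against 3.69 and 3.48 in irradiated miR-21+/+ tumors. The difference there was 1.47 (unadjusted p = 0.0483 and adjusted p = 0.36, limma), which is a rise by the study's criteria, with an interaction of 7.82 (SE 0.88; limma, adjusted p = 0.0875). *Csn2* stayed higher in irradiated miR-21-/- tumors, at 11.90 and 12.74 against 10.78 and 10.17 in miR-21+/+ tumors (difference 1.84). The interaction count was 125 without irradiated miR-21-/- replicate 1, 2523 without replicate 2 and 0 without any other single array.

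**Figure D5:**
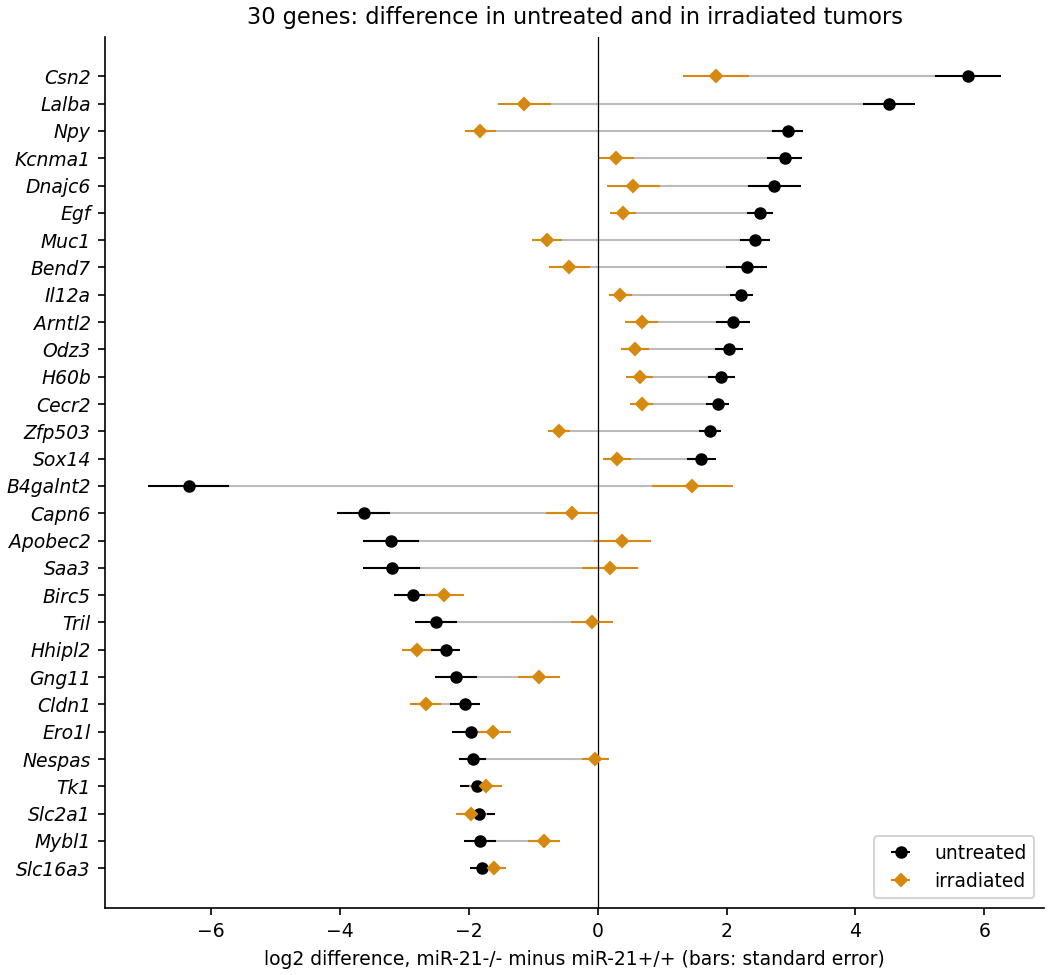
Log2 difference, miR-21-/- minus miR-21+/+, of the 30 named genes in untreated tumors (black circles) and in irradiated tumors (orange diamonds), with standard errors as bars. The genes are the 15 largest rises and 15 largest falls among named genes at an adjusted p under 0.05 in untreated tumors. Of the 15 falls 12 were also lower in irradiated tumors, 7 of them by the study's criteria, and 1, B4galnt2, rose there by the same criteria. Of the 15 rises 1 also rose there by the same criteria, and 5 lie on the other side of 0. Of those 5, 2 fell there by the same criteria, Npy and Lalba.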

How the data were processed

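Total RNA of whole tumors was hybridized to mouse gene expression arrays, 2 arrays for each of 4 groups. The authors deposited log2 probe set values, normalized by RMA, with Expression Console 1.4 and Transcriptome Analysis Console 3.1 in the submitters' processing notes. The array build was not given in the sources used here, and RMA values keep no signal over background. The mean of the probe sets with 1 gene symbol gave 23152 genes (233753 of 269751 probe sets; 5139 had several symbols and 30859 none). All 8 arrays entered 1 limma model (3.58.1, R 4.3.3) with a mean per group, and p-values were Benjamini-Hochberg adjusted over all genes; the code was tested on simulated data. Named genes were the 15 highest and 15 lowest differences at adjusted p under 0.05, with at least 3 probe sets, a level above the median in the higher group and no overlap of arrays, and from each list the 4 members of smallest p and those its count turns on, besides *Fas*, *Fasl*, *Pdcd4*, *Vmp1* and the Mir21 probe set. *Oas2* and *Ifit1* were chosen after their values were seen. Members and lists were chosen with earlier results of these data known. The alternatives comprised 8 fits without 1 array and 11 others. RefSeq tables (GRCm38.p6) served only for current names, gene order and sequences.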

Additional observations from a re-analysis of the deposited data

Results flagged for a closer look

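*Npy* was singled out because its genotype difference itself differed between irradiated and untreated tumors, by −4.77 on the log2 scale (SE 0.34; limma, adjusted p = 0.0257). Its level was higher in both untreated miR-21-/- arrays and lower in both irradiated miR-21-/- arrays than in the miR-21+/+ arrays of the same treatment. The untreated difference depended on the probe set, running from 0.26 to 4.89 over the 4 probe sets of *Npy*. With the brightest of them it was 0.26 and did not meet the study's criteria. The groups of 2 arrays are too small for a test of single arrays that lie far from their group.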

How the results depend on the processing

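The numbers of genes that rose or fell by the study's criteria held better than the adjusted calls. Without 1 array at a time, 199 to 272 genes rose and 433 to 622 fell (641 to 894 in all), while adjusted calls ran from 0 to 439 higher and 0 to 747 lower, the interaction from 0 to 2523 genes and the share with the same sign in irradiated tumors from 62.1% to 78.7%. Adjusted calls were 448 higher and 762 lower with the 4 untreated arrays alone, 315 and 629 with array weights, 12 and 26 with the median of the probe sets, and 0 and 0 both without variance moderation (188 rose and 354 fell by the study's criteria) and with the brightest probe set of each gene (523 rose and 525 fell). The median of the probe sets gave 379 rises and 642 falls. The excess of falls over rises thus depended on how probe sets were summarized, and it was nearly absent with the brightest probe set. Among genes above the median level, 141 rose, 134 were lower by adjusted p and 76.8% kept their sign. Quantile normalization left 42 lower by adjusted p. The interaction count was 5 with a variance trend, 11 with array weights and 0 with the brightest probe set. No pairing by replicate number was seen over all genes: replicate 1 minus replicate 2 correlated at 0.0057 between the untreated genotypes and at −0.133 to 0.0418 over all pairs of groups. Such correlations cannot exclude a pairing that affects few genes. With the replicate block 16 genes were higher and 18 lower by adjusted p, and the interaction count was 0.

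Of the 42 lists, 17 had medians on both sides of 0 over these fits and 25 kept 1 sign, among them mitosis, replication, hypoxia, milk and matrix. The interferon median ran from −0.71 to 0.92. With the brightest probe set, *Egf* (−0.51), *H60b* (−0.31), *Epgn* (0.05), *Erbb4* (−0.03), *Lgr5* (−0.39) and *Cfb* (0.66) reversed, as did the medians of the death receptor (−0.09) and TGF-beta (0.09) lists. The keratin median was 0.03 with the median of the probe sets, and the Wnt and Notch median −0.05 among genes above the median level. Over the fits without 1 array the death receptor median ran from −0.06 to 0.06 and the keratin median from −0.26 to 0.07, both turning sign without miR-21-/- replicate 2. *Oas2* ran from −0.14 to 2.73 and *Ifit1* from −0.52 to 1.88, both negative without miR-21+/+ replicate 1. The cause of these changes was not tested.

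The 30 named genes were chosen as large differences with no overlap of arrays, so that they keep their direction without 1 array says nothing about stability. With the brightest probe set 20 of them met the study's criteria and 28 kept their sign. With 2 arrays per group an exact permutation test cannot reach 0.05, so every p rests on the variance model. A dim probe set limits what can be said of Mir21 itself.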
